A study of Drosophila melanogaster with 2 samples.

Results

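Oxidative phosphorylation subunit genes are the nuclear genes for the respiratory chain of the mitochondrion. They were taken by symbol from the protein-coding genes of the Ensembl fly annotation: 40 genes of complex I (symbols that start with ND-), 9 of complex III (UQCR-), 16 of complex IV (COX) and 15 of complex V (ATPsyn), in all 80 of 13968 protein-coding genes on the main chromosome arms. The rule itself uses symbols and no measured value, although it was set with earlier results of these data known. The complex is the one the symbol prefix gives; the mammalian counterpart of ND-MLRQ is known as a part of complex IV. Subunits under other names, such as levy and blw, and all of complex II fall outside these symbols and are given apart. Of the 80 genes, 21 have a symbol that ends in L or in L and a digit, the mark of a duplicate of a subunit gene, with ND-MNLL left out because its final letters stand for amino acids. The other 59 are called subunit genes.

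The data were peak lists of hamlet (Ham), a zinc finger transcription factor known for its part in the fates of sensory organs and neurons. Chromatin came from whole Drosophila melanogaster embryos of mixed ages, 0 to 24 hours, of a transgenic strain, ham-GFP, that makes Ham fused to eGFP, and was sonicated to 200 to 800 bp and precipitated with an antibody to GFP. There was a single group with 2 biological replicates, no other genotype, treatment or stage, and the control library was not analysed here. The labels used here do not say what drives the transgene. Since whole embryos were pooled, a low peak cannot be told apart from a high one present in few cells. The regions had been ranked by the irreproducible discovery rate, a measure of how well repeats agree; every ranked region is called a candidate below, and those past the authors' limit are called thresholded. The pooled list held 150585 candidate regions, and 1495 were thresholded. The depth of the libraries is unknown. The tagged gene itself had 3 pooled thresholded summits within its body, the highest with a signal value of 87.8.

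The respiratory chain passes electrons from NADH through complex I, and from succinate through complex II, to complex III, by way of cytochrome c to complex IV and at last to oxygen. Complexes I, III and IV pump protons out of the matrix, and complex V, the ATP synthase, makes ATP as the protons return. Most subunits are encoded in the nucleus and are made in nearly all tissues, while many of the duplicated genes of the fly are known for expression in the testis.

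Thresholded Ham peaks were about as frequent at the start sites of respiratory chain genes as at those of coding genes at large. A summit within 500 bp of an annotated start site was found for 5 of the 80 genes, or 6.25% (95% Wilson interval 2.7% to 13.8%), against 6.59% of all coding genes (921 of 13968, interval 6.19% to 7.02%). The 5 genes were ND-ASHI, ND-MWFE and ND-SGDH of complex I, COX5A of complex IV and ATPsynE of complex V. In the shorter list that the submitters called conservative, 4 of the 80 genes had a peak (5%), against 4.17% of all coding genes, and COX5A was the gene that was missing. Replicate 2's own list gave 4 genes (5%), against 5.7% of all coding genes, with ND-SGDH missing. Replicate 1's own list gave only ND-MWFE (1.25%), against 2.69% of all coding genes. In each of these 4 lists the interval for the respiratory chain genes held the share of all coding genes. The intervals cover counting error only, and genes are not independent replicates.

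**Figure D1:**
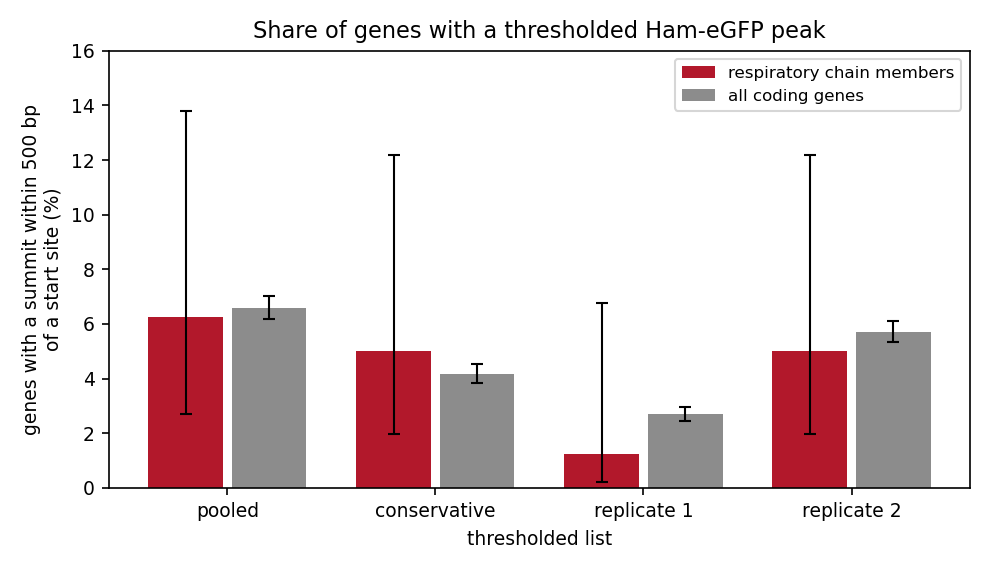
Percentage of genes with a thresholded Ham-eGFP summit within 500 bp of a start site, in each of the 4 thresholded lists; red bars are the 80 respiratory chain genes, grey bars all 13968 coding genes, and lines are 95% Wilson intervals. The pooled bars stand at 6.25% and 6.59%, and in all 4 lists the red interval spans the grey bar.

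The DNA under 4 of the 5 highest peaks is shown because it carries peaks that the count rests on. The window of ND-MWFE, the only peak thresholded in both replicates, is not shown. Each line runs 5′ to 3′ on the strand of the respiratory chain gene, with the summit at base 101 of 201, and was read from the RefSeq copy of the Release 6 (dm6) genome. Capitals mark any of 7 words searched on both strands: TATCGATA (DNA replication-related element), GGTCACACT (core of the M1BP motif), TTACGTAA and TTACATAA (forms of the nuclear respiratory gene palindrome), the word GATAA read by GATA factors, the word GAGAG read by GAGA factor, and the A-rich word TTAAAA. A word on the other strand appears as its reverse complement, and none of the 7 words contains another. The windows are chrX:6679242-6679442, minus strand (ND-ASHI), chr3R:14326938-14327138, plus strand (ATPsynE), chr3R:11819434-11819634, plus strand (COX5A) and chr3L:12138540-12138740, minus strand (ND-SGDH).
ND-ASHI: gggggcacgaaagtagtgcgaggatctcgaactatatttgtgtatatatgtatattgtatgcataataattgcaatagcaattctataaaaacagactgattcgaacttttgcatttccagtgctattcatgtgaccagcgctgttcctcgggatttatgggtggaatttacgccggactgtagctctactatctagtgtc
ATPsynE: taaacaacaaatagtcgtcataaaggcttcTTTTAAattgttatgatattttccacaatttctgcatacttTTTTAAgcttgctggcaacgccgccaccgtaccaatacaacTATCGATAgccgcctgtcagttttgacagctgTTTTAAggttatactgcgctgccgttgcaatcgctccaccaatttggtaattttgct
COX5A: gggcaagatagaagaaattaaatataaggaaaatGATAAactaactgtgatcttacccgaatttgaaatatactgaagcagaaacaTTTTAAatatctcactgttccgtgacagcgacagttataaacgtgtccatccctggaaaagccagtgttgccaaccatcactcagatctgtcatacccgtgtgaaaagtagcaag
ND-SGDH: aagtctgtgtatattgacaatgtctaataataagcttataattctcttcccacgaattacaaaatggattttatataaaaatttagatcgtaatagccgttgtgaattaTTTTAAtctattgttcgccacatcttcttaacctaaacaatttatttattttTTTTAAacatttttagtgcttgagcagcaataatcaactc

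These 4 windows shared no single word. ATPsynE held TATCGATA at bases 113 to 120, 12 bp past the summit, and 3 copies of TTAAAA, while ND-SGDH held 2 copies of TTAAAA. COX5A held TTAAAA and GATAA, 1 copy each, and ND-ASHI held none of the 7 words searched. The share of A and T was 59.7% in the ND-ASHI window, 60.2% in that of ATPsynE, 61.7% in that of COX5A and 73.6% in that of ND-SGDH. Over the 6 thresholded summits at these genes the median share of A and T was 60.9%, against 62.2% over the 1421 thresholded summits of the main arms. TTAAAA was in 4 of the 6 windows, against 42.2% of all 1421, and GATAA in 2 of the 6, against 34.1%. A word in a window is a description and not a binding site.

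ND-ASHI (FBgn0029888), a gene for an accessory subunit of complex I, had the highest peak of the set. The pooled peak ran from 6679174 to 6679509 on X, with its summit 224 bp upstream of the start site. Its signal value, the authors' own strength of a peak on a scale whose relation to reads is not stated, was 187.6 in the pooled list, 40.6 in replicate 1 and 141 in replicate 2, where the candidate region that held the pooled summit was read. It ranked 189th among the pooled thresholded peaks, and was in replicate 2's thresholded list but not in that of replicate 1, where its score of 805 lay below the minimum of 830. The score is a deposited value of up to 1000, and the sources used here do not state which repeats it compares. The summit lay in an intron of Fum1, the gene for fumarase of the tricarboxylic acid cycle, and 298 bp upstream of the nearest Fum1 start site.

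ND-MWFE (FBgn0085468), which encodes a small membrane subunit of complex I, was the sole gene of the set whose peak stood in the thresholded lists of both replicates. The peak ran from 13158308 to 13158643 on 2R, with its summit 190 bp upstream of the ND-MWFE start site. Signal values were 142 in the pooled list, 46.1 in replicate 1 and 98.1 in replicate 2, and both replicates had a score of 1000. The summit lay in an intron of TppII, the gene for tripeptidyl peptidase II, only 31 bp upstream of the nearest TppII start site. By nearest start site this peak belongs to TppII, and the count then falls to 4 of 80 genes (5%), against 4.7% of all coding genes.

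ATPsynE (FBgn0038224), the gene for a small subunit of the membrane part of the ATP synthase, had a pooled peak of 97.5 from 14326870 to 14327205 on 3R. In replicate 1 the value was 26.9 with a score of 222, and in replicate 2 it was 73.4 with a score of 1000. The summit lay 30 bp upstream of an ATPsynE start site, inside the 5′ UTR of a longer transcript. The nearest start site of Afti, which encodes an aftiphilin-like trafficking protein, was 349 bp from the summit on the other side.

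COX5A (FBgn0019624), which encodes a nuclear subunit of cytochrome c oxidase, had 2 overlapping thresholded peaks on 3R, and neither had a candidate region of replicate 1 at its summit. The higher one, from 11819366 to 11819701, had a pooled signal value of 89.2 and a value of 63.1 in replicate 2. Its summit lay 65 bp upstream of the nearest COX5A start site, in an intron of a longer COX5A transcript, and 114 bp upstream of the start site of glo, the gene for the RNA-binding protein Glorund. The lower one, from 11819601 to 11819936, had a pooled value of 31.7, rank 1425, and its summit lay in a coding exon of COX5A 170 bp past the start site. In replicate 2 the region at that summit had a value of 10.8 and a score of 27, although the pooled score was 1000.

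ND-SGDH (FBgn0011455), the gene for another accessory subunit of complex I, had the lowest of the 5 highest peaks, 85.1, from 12138472 to 12138807 on 3L. The value was 28.2 in replicate 1, with a score of 19, and 56.5 in replicate 2, with a score of 648, so that neither replicate listed it as thresholded although the pooled and conservative lists did. The summit fell between coding genes, 56 bp upstream of the ND-SGDH start site and 228 bp upstream of that of RhoGAP68F. At the 4 of these 5 genes with a region in both replicates, the value of replicate 2 was the higher one. Nothing in the sources says that the replicates' signal values share a scale.

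**Figure D2:**
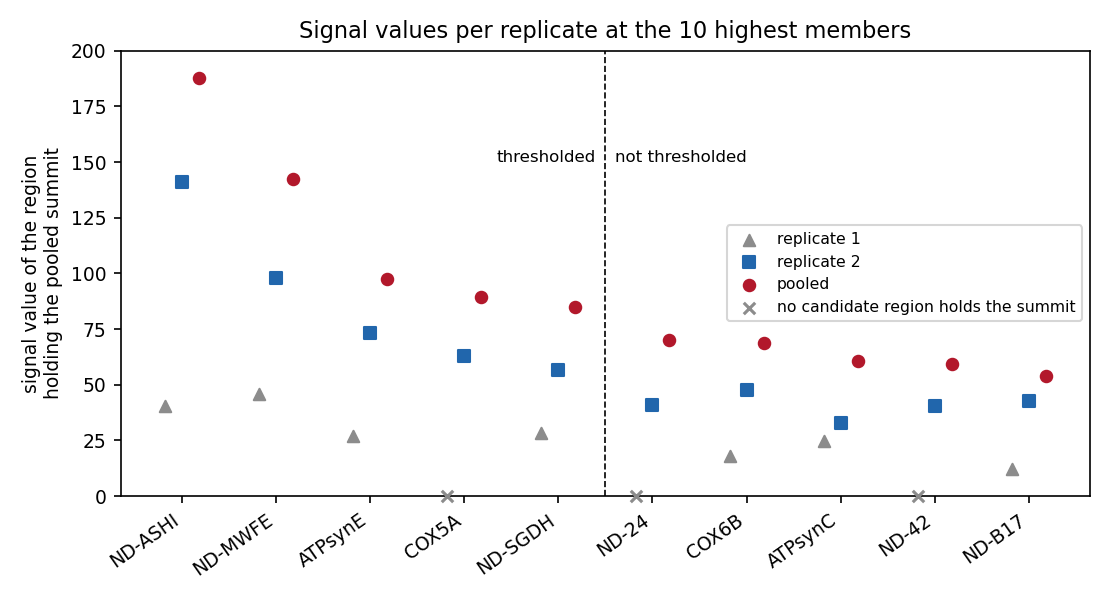
Signal value (linear axis) of the candidate region that holds the pooled summit in replicate 1 (triangles), replicate 2 (squares) and the pooled list (circles), for the 10 respiratory chain genes with the highest pooled values; a cross at 0 marks a replicate with no region there. The 5 genes left of the dashed line, from ND-ASHI (187.6) to ND-SGDH (85.1), were thresholded, and the 5 to the right, from ND-24 (70.3) to ND-B17 (54.1), were not.

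All 5 highest peaks had their summit between nearest start sites that point apart, those of a gene pair. The peak therefore cannot be given to the respiratory chain gene alone. The gene records of ND-ASHI and Fum1, of ND-MWFE and TppII, and of COX5A and glo overlap, so these pairs are head-to-head only by those start sites. At ATPsynE and COX5A a further start site of the same gene lies on the neighbour's side of the summit. Their summits therefore also lie between start sites of the respiratory chain gene itself. In each pair the genes were on opposite strands. The nearest start sites were 522 bp apart for ND-ASHI and Fum1, 221 bp for ND-MWFE and TppII, 379 bp for ATPsynE and Afti, 179 bp for COX5A and glo, and 284 bp for ND-SGDH and RhoGAP68F. Of all coding genes with a thresholded peak, 523 of 921 (56.8%) had a summit that also lay within 500 bp of a start site of another coding gene. This is a wider measure, on either strand and either side of the summit, and all 5 respiratory chain genes met it. The share with a summit between start sites that point apart was not counted over all coding genes. The 5 summits were all upstream of the nearest start site of their respiratory chain gene, as were 86.3% of the highest summits of those 921 genes. The highest thresholded peak per gene had a median signal value of 97.5 at the 5 genes and 109 at the 921. Whatever the peaks, 40 of the 80 respiratory chain genes (50%) had a coding neighbour whose start site lay within 500 bp of their own, against 30.8% of all coding genes. The differences in these shares were not tested.

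**Figure D3:**
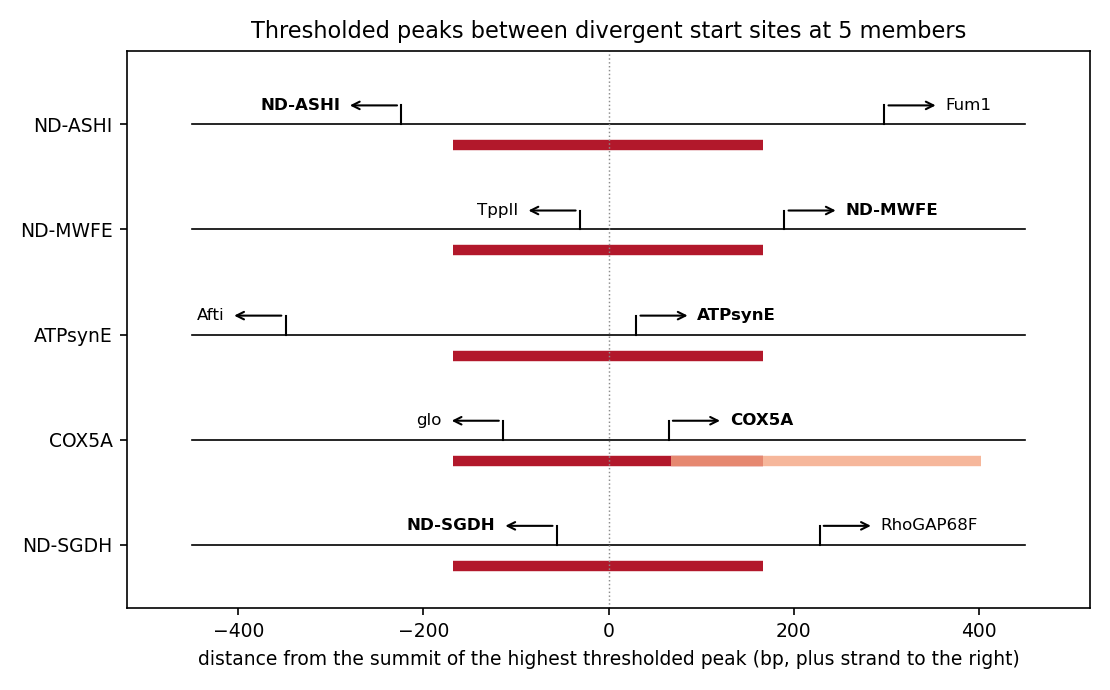
Thresholded peaks (red bars, with the second COX5A peak in pale red) and the nearest start site of each coding gene within 500 bp of the summit (arrows point in the direction of transcription), by distance in bp from the summit of the higher peak. At all 5 genes the summit at 0 lies between arrows that point apart, and at ND-MWFE the TppII arrow, 31 bp away, is the nearer one. Further start sites are not drawn, such as those of ATPsynE and COX5A left of the summit and those of Fum1 and TppII outside the range shown.

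The other 75 genes had no thresholded summit near a start site, and for 54 of them there was only a candidate region below the threshold. The signal values of these 54 ran from 2.79 to 70.3 with a median of 32. Their scores ran from 48 to 709 with a median of 149, none reached 830, and 16 stood at 48, the lowest. The highest value, 70.3, was at ND-24, a core subunit of the NADH-oxidising arm of complex I, with a score of 606, a value of 41 in replicate 2 and no region in replicate 1. COX6B, a subunit of cytochrome c oxidase, had 68.8 in the pooled list, 18.1 in replicate 1 and 47.7 in replicate 2, and with 709 the highest score of the 54. ATPsynC, which encodes the subunit of the rotating ring of the ATP synthase, had 60.8 in the pooled list, 24.8 in replicate 1 and 33 in replicate 2, with its summit 70 bp past a start site and no other coding gene within 500 bp. ND-42 and ND-B17, both of complex I, followed with 59.5 and 54.1. At ND-42 replicate 2 had 40.5 and replicate 1 no region, and at ND-B17 replicate 1 had 12.1 and replicate 2 had 42.8. The ND-24, COX6B and ND-42 summits also lay within 500 bp of a start site of another coding gene, and that of ND-B17 did not.

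The windows at COX6B and ND-24 are shown because these had the highest score and the highest signal value of the 54 genes, in that order. No limit on signal value is known, and the highest thresholded peak per coding gene ran down to 42.6. The layout is the same, at chrX:19744273-19744473, minus strand (COX6B) and chrX:17632146-17632346, plus strand (ND-24). ND-24 held 3 copies of TTAAAA, the first 2 overlapping, and COX6B held GAGAG 2 times. The share of A and T was 45.3% at COX6B and 69.2% at ND-24.
COX6B: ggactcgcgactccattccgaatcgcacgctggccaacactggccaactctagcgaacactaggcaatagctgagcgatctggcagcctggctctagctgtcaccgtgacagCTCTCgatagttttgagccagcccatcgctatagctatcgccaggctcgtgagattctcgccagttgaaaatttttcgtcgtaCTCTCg
ND-24: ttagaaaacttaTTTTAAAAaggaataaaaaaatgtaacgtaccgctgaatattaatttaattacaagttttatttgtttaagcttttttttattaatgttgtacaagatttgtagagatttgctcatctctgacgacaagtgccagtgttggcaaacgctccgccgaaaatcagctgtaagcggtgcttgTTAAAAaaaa

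For 21 of the 80 genes (26.2%) the pooled list held no candidate region that near to a start site, against 20.4% of all coding genes. Complex I had 8 such genes, namely ND-20, ND-23, ND-49, ND-51, ND-AGGG, ND-B14.5B, ND-B14.7 and ND-MLRQ. Among them ND-49, ND-20 and ND-23 encode core subunits on the path of electrons to ubiquinone, and ND-51 the subunit that binds NADH. Complex III had 1, UQCR-C1, a core subunit. Complex IV had 6, which were COX4, COX4L, COX6AL2, COX6CL, COX7CL and COX8, and complex V had 6, which were ATPsynB, ATPsynCF6L, ATPsynG, ATPsynO, ATPsynbeta and ATPsynepsilonL. ATPsynbeta encodes the catalytic subunit of the synthase. Of the 21 genes, 14 had no candidate region in either replicate's own list. The other 7 had one in replicate 2, with values from 9.69 at ND-20 to 40.7 at COX8, and ND-51 also had one in replicate 1 (4.78).

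By signal value, the candidate regions of respiratory chain genes lay close to those of coding genes at large. Any candidate region was found for 59 of 80 genes (73.8%, interval 63.2% to 82.1%), against 79.6% of all coding genes. The highest one per gene had a median signal value of 33.1 (quartiles 21.1 and 50.5) over these 59 genes, against 32.2 (quartiles 22.4 and 44.6) over 11121 coding genes. Of the 59, 7 (11.9%) were among the highest 10% of coding genes with a region, and 18 (30.5%) among the highest 25%. The summit was upstream of the start site at 33 of the 59 genes (55.9%), against 46.5% of coding genes, and the median distance was 237 bp, against 212 bp. In replicate 1's own ranked list 38 of the 80 genes had a region (47.5%, interval 36.9% to 58.3%), against 59.5% of coding genes, and this share lay above that interval. In replicate 2's list 62 had one (77.5%, interval 67.2% to 85.3%), against 80.9%. Of the 35 genes with a region in both replicates, replicate 2 had the higher value at 33, against 6767 of 7629 coding genes. Spearman's rank correlation between the replicates' highest values was 0.64 across these 35 genes and 0.416 across 7629 coding genes. These rank correlations describe genes that share the same 2 libraries.

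**Figure D4:**
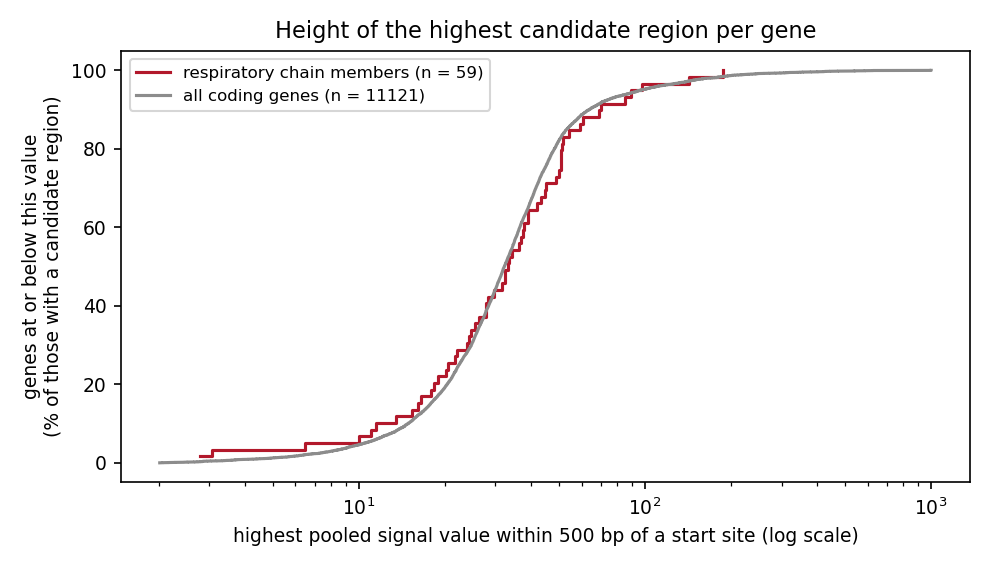
Cumulative share of genes (%) by the highest pooled signal value within 500 bp of a start site (log axis), for the 59 respiratory chain genes with a candidate region (red) and the 11121 coding genes with one (grey). The curves run close together, with medians of 33.1 and 32.2.

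By complex, the share of genes with a candidate region ran from 60% in complex V to 88.9% in complex III, against 79.6% of all coding genes. The thresholded counts below stand beside 6.59% of all coding genes, and the medians beside 32.2. Complex I had 32 of 40 genes with a candidate region and 3 with a thresholded peak, with a median signal value of 30.6 over the 32. Complex III had 8 of 9 with a region, a median of 25.9 and 0 thresholded, and a count of 0 in 9 allows a share of up to 33.3%. The highest there was UQCR-11, with 51 in the pooled list, 21.6 in replicate 1 and 31.9 in replicate 2. Complex IV had 10 of 16 with a region, a median of 51, and 1 thresholded. It held both the lowest values of the set, COX7A with 3.06 and COX7B with 2.79, and a cluster of 4 values between 51 and 51.9. Complex V had 9 of 15 with a region, a median of 43.2, and 1 thresholded. The interval of the thresholded share held 6.59% in each of the 4 complexes. The medians count only genes that had a region, and none of these differences was tested.

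Values of some further subunits, picked after their values were seen, follow by complex; core genes with no region, such as ND-49, UQCR-C1 and ATPsynbeta, are named above. In complex I, ND-75, the large iron-sulfur subunit, had 34.2 in the pooled list, 14.6 in replicate 1 and 21 in replicate 2. ND-30, another core subunit, had 24.3 in the pooled list, 11 in replicate 1 and 16.9 in replicate 2. ND-B16.6, an accessory subunit, had 31.6 at a summit that also lay within 500 bp of a start site of kdn, the gene for citrate synthase. These values lay below the highest peak of each of the 5 thresholded genes, the lowest of which was 85.1. ND-75 stood above the second COX5A peak (31.7), and ND-B16.6 and ND-30 below it. In complex III, the core subunit UQCR-C2 had 11 in the pooled list, 11.8 in replicate 2 and no region at that summit in replicate 1. In complex IV, COX7C had 51 in the pooled list and 50 in replicate 2, and COX5B had 48.8 and 45.6, and neither had a region of replicate 1 at its summit. In complex V, the central stalk genes ATPsyngamma and ATPsyndelta lay close together at 45.2 and 44.5, with 31.8 and 36.7 in replicate 2. In replicate 1 ATPsyngamma had 15.1 and ATPsyndelta had no region at its summit. ATPsynF, of the membrane part, had 43.2 in the pooled list, 12.6 in replicate 1 and 23 in replicate 2. ATPsynCF6 and ATPsynD, of the peripheral stalk, differed from each other, with 41.9 and 11.4 in the pooled list. ATPsynCF6 had 13.4 in replicate 1 and no region at that summit in replicate 2, while ATPsynD had 8.45 in replicate 1 and 19.9 in replicate 2. Besides ND-B16.6, the summits of COX7C, ATPsyngamma, ATPsyndelta, ATPsynF, ATPsynCF6 and ATPsynD also lay within 500 bp of a start site of another coding gene. Of the 59 genes with a region, 25 (42.4%) had such a shared summit, against 26.1% of coding genes with a region. This difference was not tested.

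**Figure D5:**
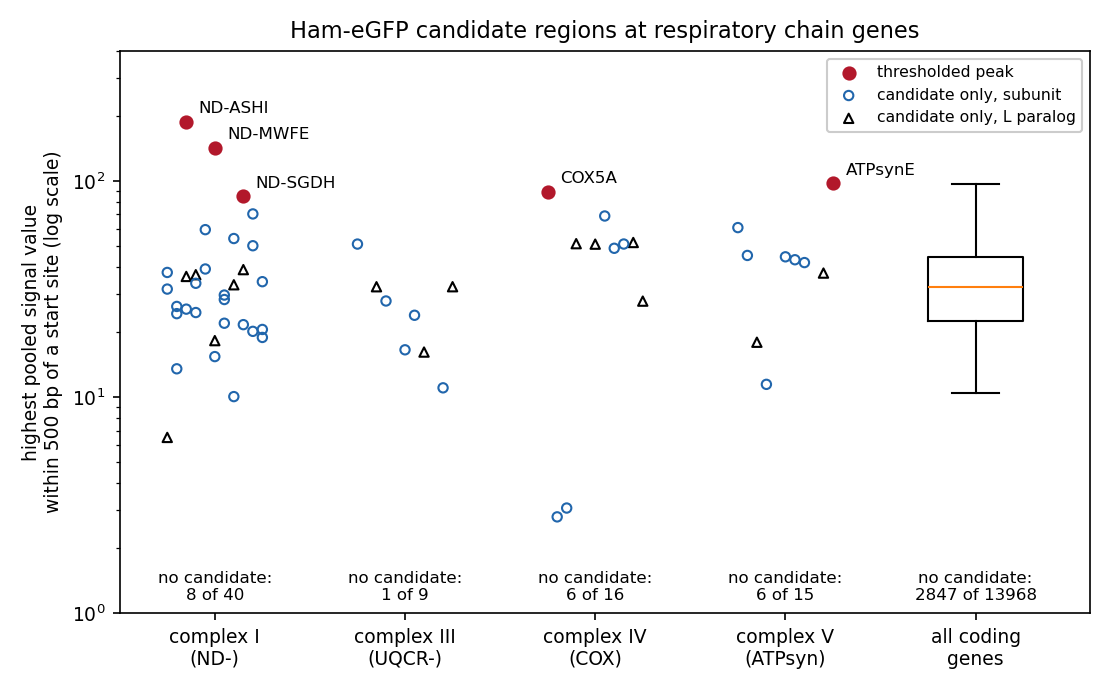
Highest pooled signal value within 500 bp of a start site (log axis) for each respiratory chain gene, by complex, beside all coding genes (box, median and quartiles; whiskers, 5th and 95th percentiles). Filled circles are the 5 genes with a thresholded peak, open circles other subunit genes and open triangles the L duplicates, and the text under each column counts genes with no candidate region.

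None of the 21 duplicates had a thresholded peak, which allows a share of up to 14.3%, against 5 of the 59 other genes (8.47%, interval 3.67% to 18.4%) and 6.59% of all coding genes. That last share lies within what a count of 0 in 21 allows and within the interval of the 59. Candidate regions were found for 15 of the 21 (71.4%) and 44 of the 59 (74.6%), against 79.6% of all coding genes, with median signal values of 33.1 and 32.6, against 32.2. The highest duplicates were COX7AL with 51.9, COX5BL with 51.2 and COX7AL2 with 51. As to their surroundings, 3 of the 21 duplicates (14.3%) had a start site within 500 bp of that of another coding gene, against 37 of the 59 (62.7%) and 30.8% of all coding genes. This was not tested, and each of the 5 thresholded peaks lay at a shared promoter, so class and surroundings cannot be told apart in these counts.

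In promoter windows from 250 bp before to 50 bp after the first start site of each gene, GGTCACACT was in 15 of the 80 genes (18.8%), against 6.04% of all coding genes. It was in 2 of the 5 genes with a thresholded peak, COX5A and ND-MWFE, and in 13 of the other 75 (17.3%). TATCGATA was in 9 of the 80 (11.2%), against 9.36%, and in none of the 5. At ATPsynE and COX5A, which have a further start site downstream, this window ends before the summit, so it does not cover the TATCGATA that lies past the ATPsynE summit. TTAAAA was in 57 (71.2%), against 53.4%, GATAA in 45 (56.2%), against 55.1%, and GAGAG in 17 (21.2%), against 29.7%. Of the palindromes, TTACATAA was in 2 of the 80 (2.5%), against 2.15%, and TTACGTAA in none of them, against 0.451% of coding genes. These shares were not tested.

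Other genes of energy metabolism, from 3 lists chosen with earlier results of these data known, were counted in the same way. Of 17 other respiratory chain genes 4 had a thresholded peak (23.5%), against 6.59% of all coding genes. They were CIA30, an assembly factor of complex I, with 539 in the pooled list, 148 in replicate 1 and 399 in replicate 2; Cyt-c-d, a cytochrome c gene, with 161; levy, a subunit of complex IV, with 116; and blw, the alpha subunit of the ATP synthase, with 73.2. The CIA30, Cyt-c-d and levy summits were also within 500 bp of a start site of another coding gene, which were CG7601, CG31808 and wmd in that order. That of blw was not. Of these 4 genes only CIA30 was in the thresholded lists of both replicates, and Cyt-c-d had no region of replicate 1 at its summit. The median signal value of the 12 genes with a region was 38.3, and 5 had none, namely SdhA and SdhD of complex II, ox, Cyt-c-p and sun. Of 14 tricarboxylic acid cycle genes and relatives 2 had a peak (14.3%), Idh3g with 127 and Fum1 with the peak it shares with ND-ASHI. The Idh3g summit also lay within 500 bp of a CG4743 start site and had no region of replicate 1. The median of the 11 with a region was 37.4. Of 10 genes listed for mitochondrial gene expression and biogenesis 2 had a peak (20%). They were mtSSB, which binds mitochondrial DNA, with 79.3, and Dref, which binds the DNA replication-related element, with 56.7. The Dref summit also lay within 500 bp of an RpL13 start site, and the thresholded list of neither replicate held it. The median of the 7 genes of this list with a region was 14.5. These lists are short, and their shares were not tested.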

How the data were processed

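Peak lists of 2 biological replicates were used as deposited, on dm6 per the deposited file descriptions. The ranked lists were ordered by irreproducible discovery rate per those descriptions, and the thresholded lists also drew on a file that was not described. Aligner, caller and their settings were not given in the sources used here. Each peak's signal value and score are the authors' values as deposited, and the score of thresholded peaks is at least 830. Genes and start sites came from Ensembl release 115 (BDGP6.54), and sequence from the RefSeq Release 6 genome; 0 candidate regions ended beyond their arm.

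Start sites of all transcripts of a gene were used, and a summit counted for every coding gene within 500 bp. Gene names were read by symbol; ND-MNLL was not taken as a duplicate, since its letters are residues. Named were all genes with a thresholded peak, the 5 highest without one and all with no region; other genes were named after their values were seen. No significance test was made, since there was 1 group. Promoter windows were cut from the genome because no promoter table was used here. The genes, lists and words were chosen with earlier results of these data known. Peak assignment was tested on simulated data. Python 3.11.15 and scipy 1.17.1 were used. Alternatives were other distances, stricter lists, each replicate alone, other assignment rules and subsets of the genes.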

Additional observations from a re-analysis of the deposited data

How the results depend on the processing

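The count of 5 respiratory chain genes with a thresholded peak held, with the same 5 genes, at 250 bp and 1000 bp, with a score of at least 1000, with the start of the gene record only, and without the L duplicates. The 5 highest peaks all had a score of 1000, and their summits lay at most 224 bp from a start site. The score limit and 250 bp could therefore not change the count, nor could leaving out duplicates, none of which had a peak. The window of 1000 bp could only add genes. The count also held in 2 alternatives chosen after seeing the data. With all ranked regions of a score of at least 830, all coding genes stood at 6.76%. With summits in the gene body or within 500 bp of it, which could only add genes, all coding genes stood at 10%. The count was 4 in the conservative list and with the nearest gene only. No symbol marked an assembly factor, so leaving these out changed nothing by construction. Without replicate 1 or replicate 2 the count ran from 1 to 4, that of complex I from 1 to 2, and those of complexes IV and V from 0 to 1 each. Complex IV had 0 in the conservative list. The share of all coding genes was 5.23% at 250 bp, 8.06% at 1000 bp, 4.17% in the conservative list, 5.08% with a score of at least 1000, 4.7% with the nearest gene only and 5.61% with the gene record, and ran from 2.69% to 5.7% without replicate 1 or replicate 2. The median of 33.1 was 39.4 at 1000 bp and 24.5 with 0 for genes without a region (27.4 for all coding genes), and ran from 13.2 to 21.1 in the replicates' own lists, whose scale may differ; the cause was not tested. The spread between replicates rests on 2 values, and unknown depth limits what a missing region shows.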
